A study of Rattus norvegicus with 18 samples.

Results

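The genes described here copy DNA and divide the nucleus. The set was given as a list of 37 gene symbols, and its members are the rows of the rat mRNA count table that carry one of these symbols. Of the 37 symbols, 35 had a row among the 15075 RefSeq identifiers of the table, while *Mcm5* and *Bub1b* had none. In the 18 rats, 33 members reached more than 10 reads in 6 rats or more. *Cdt1* passed 10 reads in 1 rat and *Kif2c* in 0 rats. The symbols of 33 members came from a RefSeq gene table. *Uhrf1* and *Top2a* are missing there under their identifiers and were named from the study's own lists of identifiers and symbols, and the list that names *Top2a* is ordered by p and cut short, so a gene that changed was more likely to be named in this way.

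Poly(A) RNA was sequenced from C6-C8 DRG of 18 adult Lister hooded rats, with the ganglia of 1 side pooled into 1 library per rat. The 6 naïve rats (rats 41, 42, 43, 44, 45 and 49) were unoperated and received no vector. The 6 bPYX+GFP rats (rats 5, 15, 18, 21, 52 and 57) had both corticospinal tracts cut in the medullary pyramids and then received AAV1-CMV-GFP in the forelimb flexors of 1 side. The 6 bPYX+NT3 rats (rats 2, 11, 17, 23, 39 and 40) had the same operation and received AAV1-CMV-NT3, which carries the human NT3 gene. The DRG of both operated groups were taken 10 weeks after injury from the injected side. A CMV promoter is not restricted to 1 cell type, the operation cuts tracts that the sampled neurons do not belong to, and there was no group with an injury and no vector, so injury and vector cannot be told apart in a comparison with naïve rats.

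The library of each rat held 10057787 to 16002410 reads on genes. Normalized counts are counts scaled by TMM to the mean library size. In the count table the groups follow from its headings, whereas the titles recorded with the separate count files of single rats name another group for 17 of 18 rats although their values are identical. That other grouping is given beside the results. It reverses 11 of the 12 calls on single members described below, and *Uhrf1* was not tested in it. The median of the members turned positive in both comparisons with naïve rats (0.09 and 0.08) and stayed positive between the operated groups (0.02). For *Aurkb*, the study lists log2 fold changes of -0.94 (bPYX+GFP against naïve) and 0.73 (bPYX+NT3 against bPYX+GFP). The headings gave -0.94 and 0.73 in edgeR's likelihood ratio test, and the other grouping gave 0.38 and -0.59 in edgeR's quasi-likelihood test. The study's values for this gene are thus those of the headings. The labelled tissue was compared with a list of 8 sensory neuron markers, of which 7 had a row. Their sum was between 34147 and 65865 normalized counts per rat, although the row of *Calca*, which encodes the peptide CGRP, was under 1 normalized count on average. Naïve rat 44 stood apart with the highest sum of granulocyte and marrow markers (4101 normalized counts, against 2254 or less in the other 17 rats). Rats 57 and 11 had the highest sums of neuron markers (60200 and 65865 normalized counts, against 47958 or less in the other 16 rats) and the lowest shares of reads outside any gene feature (31.7% and 30.8%).

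In a dividing cell, the MCM helicase is loaded on DNA with the help of *Cdc6* and *Cdt1* before S phase, cyclin E starts replication, and PCNA clamps the polymerases to the template while ribonucleotide reductase and thymidylate synthase supply nucleotides. In G2 and mitosis, CDK1 with cyclin A or B, the Aurora and Polo kinases, the kinetochore proteins and the kinesins of the spindle take over. Sensory neurons are postmitotic, so these genes are usually read in a ganglion as a sign of dividing satellite glia, Schwann cells, endothelium or immune cells, though several of them are also transcribed in cells that do not divide. In such a bulk sample, fewer dividing cells and less RNA per cell cannot be told apart.

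Replication and mitosis genes differ in the letters before their start sites. Promoter windows from RefSeq on GRCr8, with 250 bases before and 50 after each start, were held for 27 of the 35 members and for 27457 genes in all. Both strands were searched for TTTGAA or TTTAAA, the core of the cell cycle homology region (CHR) of many mitosis genes, for CCAAT, which NF-Y binds, and for the E2F-like runs TTTGGCGC, TTTCGCGC, TTTCCCGC and TTTGGCGG. Matches could overlap. Several genes have more than 1 window, and a gene was counted when any of its windows matched. A CHR-like run was present in 16 of 16 cyclin, mitosis and chromatin members and in 1 of 11 replication members, against 29.7% of all genes. The 1 replication member was *Mcm2*. An E2F-like run was present in 8 of 11 replication members and in 1 of 16 cyclin, mitosis and chromatin members, *Cdk1*, against 2.44% of all genes. CCAAT was present in 7 of 11 and in 12 of 16, against 39.6% of all genes. CCAAT together with a CHR-like run was found in 12 of 16 cyclin, mitosis and chromatin members and in 0 of 11 replication members, against 12.1% of all genes. *Tk1* held none of these letters in its window. These matches describe the letters and not bound sites.

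The 160 bases before the start are shown for 4 mitosis genes whose levels were lower in an operated group (*Top2a*, *Cenpf*, *Ccnb2* and *Nusap1*), for *Uhrf1*, which was higher with NT3 than with GFP, and for *Mcm2*, as a replication gene with E2F-like letters. Capitals mark the motifs named above on either strand, and the positions are on GRCr8 (chr10:84473094-84473253, minus strand, for *Top2a*; chr13:103760887-103761046, minus, for *Cenpf*; chr8:79981659-79981818, minus, for *Ccnb2*; chr3:127057135-127057294, plus, for *Nusap1*; chr9:1221903-1222062, plus, for *Uhrf1*; chr4:122918095-122918254, minus, for *Mcm2*).
Top2a: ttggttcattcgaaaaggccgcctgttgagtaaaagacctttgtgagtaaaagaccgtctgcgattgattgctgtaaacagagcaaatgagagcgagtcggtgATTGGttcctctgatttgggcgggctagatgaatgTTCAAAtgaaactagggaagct
Cenpf: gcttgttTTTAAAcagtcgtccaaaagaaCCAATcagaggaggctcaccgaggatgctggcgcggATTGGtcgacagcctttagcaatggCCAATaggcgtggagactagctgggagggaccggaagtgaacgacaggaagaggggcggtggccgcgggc
Ccnb2: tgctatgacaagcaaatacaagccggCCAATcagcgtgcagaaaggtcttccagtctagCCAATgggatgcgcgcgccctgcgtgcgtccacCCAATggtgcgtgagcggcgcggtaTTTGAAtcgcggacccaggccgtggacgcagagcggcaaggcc
Nusap1: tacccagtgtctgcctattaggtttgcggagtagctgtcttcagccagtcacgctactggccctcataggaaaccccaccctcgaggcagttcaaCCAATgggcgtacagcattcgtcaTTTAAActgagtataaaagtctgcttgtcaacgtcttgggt
Uhrf1: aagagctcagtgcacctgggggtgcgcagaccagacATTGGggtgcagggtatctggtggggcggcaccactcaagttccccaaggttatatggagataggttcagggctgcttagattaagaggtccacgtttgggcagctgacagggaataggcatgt
Mcm2: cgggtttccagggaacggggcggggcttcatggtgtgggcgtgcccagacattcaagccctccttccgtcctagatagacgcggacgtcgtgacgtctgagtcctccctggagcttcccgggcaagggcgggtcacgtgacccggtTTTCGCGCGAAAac
In *Ccnb2*, 3 CCAAT boxes began 134, 101 and 68 bases before the start and a TTTGAA began 43 bases before it. In *Nusap1*, a CCAAT began 65 bases and a TTTAAA 41 bases before the start. *Top2a* had a CCAAT and a TTTGAA on the other strand, 57 and 22 bases before the start, while *Cenpf* had 3 CCAAT boxes but its TTTAAA lay farthest out, 153 bases before. *Mcm2* had TTTCGCGC on both strands, overlapping, within 14 bases of its start. The window of *Uhrf1* shown, the first of 3, had a CCAAT on the minus strand, and its E2F-like letters lie in another window.

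The first comparison asks what differed 10 weeks after injury with the control vector. Members were lower in bPYX+GFP than in naïve rats at 5 of 31 tested genes in edgeR's quasi-likelihood test (unadjusted p under 0.05), and at 0 were they higher. Over all 11601 genes tested, 2.52% were lower and 0.733% higher at the same threshold. The 5 are *Top2a*, *Cenpf*, *Ccnb2*, *Aurkb* and *Rrm2*. The log2 fold change was negative for 26 of 31 members with a median of -0.15, against 43.9% of all genes with a median of 0.01. No member and no gene at all passed an adjusted p of 0.05 in edgeR's quasi-likelihood test with Benjamini-Hochberg adjustment (0%; the lowest adjusted p of a member was 0.822), whereas over all genes the likelihood ratio test gave 13 and DESeq2 gave 17 such genes, none of them a member. In 0 of 31 members did the ranges of the groups not overlap (0.241% of all genes).

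*Top2a* encodes the topoisomerase that untangles replicated DNA. In naïve rats its normalized counts ran from 63.1 to 274 with a median of 141, in bPYX+GFP rats from 41.3 to 126 with a median of 49.1, and in bPYX+NT3 rats from 58.7 to 157 with a median of 82.9. All 6 bPYX+GFP rats were below the naïve median, but the ranges overlapped, since naïve rat 49 was low and GFP rat 21 was high. The log2 fold change between bPYX+GFP and naïve rats was -1.17 ± 0.34 (SE; edgeR p = 0.00429, exact permutation p = 0.0173, 6 rats each), a fold of 0.445. It remained past the threshold in each of 12 fits that left out 1 rat (-1.46 to -0.92).

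*Cenpf* encodes a kinetochore protein that builds up through G2. Its normalized counts ran from 26.6 to 109 in naïve rats (median 56.0), from 17.9 to 38.1 in bPYX+GFP rats (median 31.8) and from 23.6 to 63.9 in bPYX+NT3 rats (median 35.4). All naïve rats but rat 49 were above every bPYX+GFP rat. It differed by -1.04 ± 0.30 on the log2 scale (SE; edgeR p = 0.00369, exact permutation p = 0.0173), and it too passed in each of 12 fits that left out 1 rat.

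*Ccnb2* encodes a B-type cyclin that activates CDK1 and had counts of 26.6 to 75.2 in naïve rats (median 37) against 20.5 to 33.9 in bPYX+GFP rats (median 31.6). Only naïve rats 44 and 42 were far above the GFP range. Its difference of -0.57 ± 0.24 (SE, log2) had an edgeR p of 0.0331 and an exact permutation p of 0.0714, and it did not pass without rat 42, 44 or 57. *Aurkb*, the kinase of the chromosomal passenger complex, was counted at 6.09 to 34.6 in naïve rats (median 20) and at 5.32 to 15.8 in bPYX+GFP rats (median 10.3), close to the filter of 10 reads, which 4 naïve and 2 bPYX+GFP rats passed. Naïve rat 43 lay at the bottom of the GFP range. Its log2 fold change was -0.94 ± 0.38 (SE; edgeR p = 0.0278, exact permutation p = 0.0909). Of the 12 fits that left out 1 rat, it passed the filter in 6 and the test in 4, being lost without rat 18 or rat 52. *Rrm2*, the small subunit of ribonucleotide reductase, ran from 175 to 332 in naïve rats (median 213) and from 133 to 222 in bPYX+GFP rats (median 172). Naïve rat 44 was far above the rest of its group, whose next value was 228. On the log2 scale the difference was -0.40 ± 0.17 (SE; edgeR p = 0.0325, exact permutation p = 0.0541), and it did not pass without rat 5, 18, 44 or 57.

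**Figure D1:**
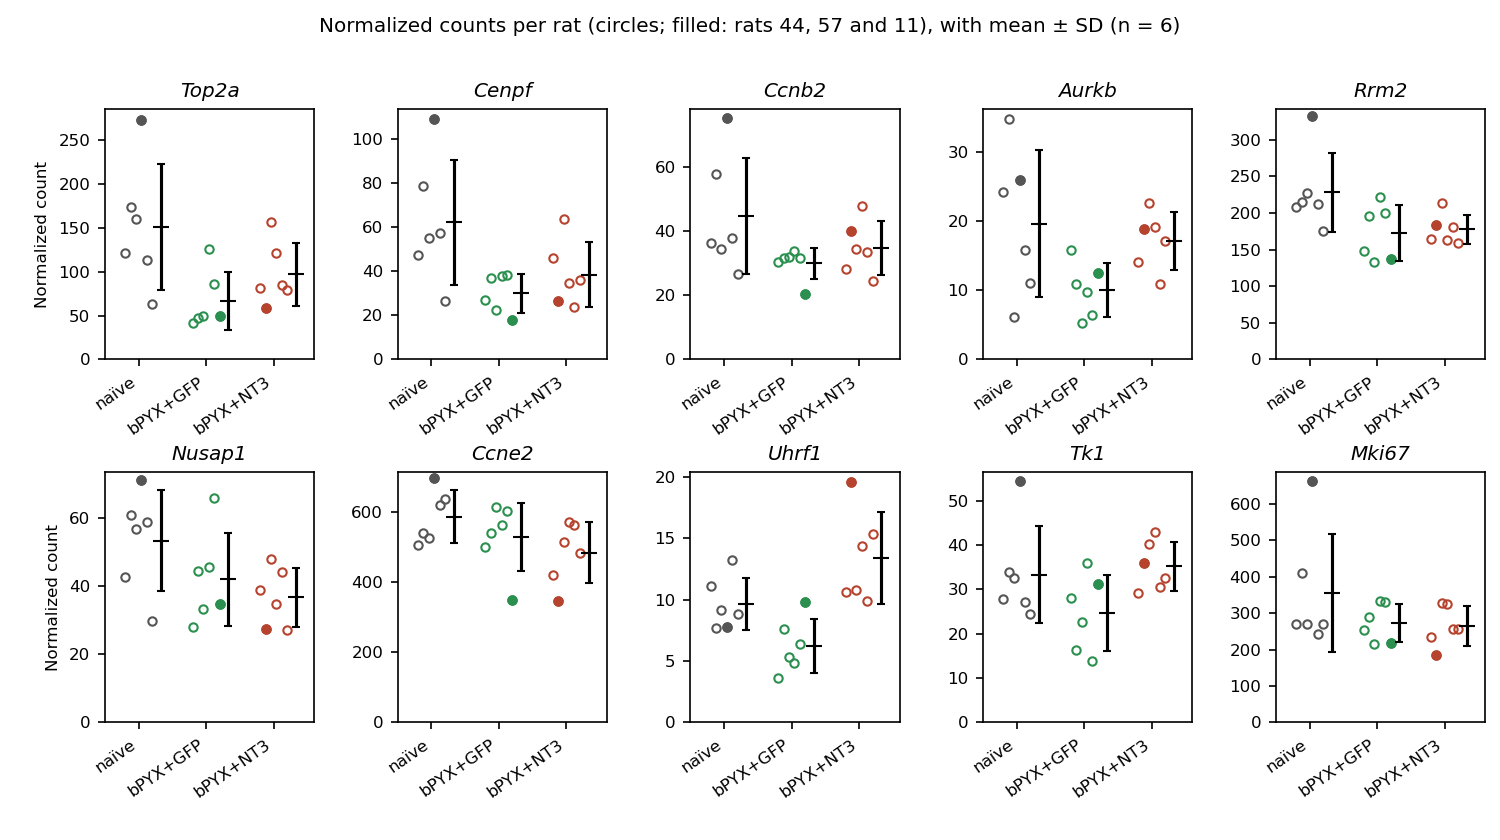
Normalized counts (y axes, linear, from 0) of the 9 genes that passed the test in at least 1 comparison and of *Mki67*, with 1 circle per rat (6 per group) and the mean ± SD beside it. Rats 44, 57 and 11 are filled, and naïve rat 44 is the highest naïve rat in 8 of the 10 panels, all but *Aurkb* and *Uhrf1*.

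By role, among 7 tested genes of licensing and the helicase, 0 passed and the median log2 fold change was -0.03. Among 5 genes of the fork and of nucleotides, 1 was lower, and among 6 cyclins and CDK1, 1 was lower. Of 6 mitotic kinases, checkpoint and anaphase genes, 1 was lower, and of 5 spindle and kinetochore genes, 1 was lower, with negative values in 6 of 6 and 5 of 5. Of the 2 genes of chromatin in dividing cells, *Top2a* was lower and *Mki67* did not pass, with a median of -0.77. *Mki67*, the proliferation marker Ki-67, ran from 244 to 664 in naïve rats (median 271) and from 215 to 333 in bPYX+GFP rats (median 272). The medians were alike, and naïve rats 44 (664) and 42 (409) lay above the GFP range. Its log2 fold change was -0.37 ± 0.23 (SE; exact permutation p = 0.299), and without rat 44 it was -0.10 ± 0.16. *Pcna* ran from 857 to 1005 in naïve and from 641 to 1014 in bPYX+GFP rats, with a log2 fold change of -0.05 ± 0.09. *Ccnb1*, the other B-type cyclin, was at 0.00 ± 0.08, *Mcm2* at -0.03 ± 0.19 and *Cdk1* at -0.39 ± 0.26 (exact permutation p = 0.238). Of the 5 positive values, the highest was 0.18 ± 0.10 for *Ccne1* (edgeR p = 0.0903, exact permutation p = 0.0541), which encodes the cyclin that starts S phase.

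*Uhrf1* and *Ube2c* fell under the filter in this comparison because of few reads in both groups. More than 10 reads were found in 2 naïve rats and 1 bPYX+GFP rat for *Uhrf1*, and in 3 and 1 for *Ube2c*. *Uhrf1*, which recruits the maintenance DNA methyltransferase to replicated DNA, was counted at 7.70 to 13.2 in naïve rats and at 3.65 to 9.82 in bPYX+GFP rats. *Ube2c*, the ubiquitin-conjugating enzyme of the anaphase-promoting complex, was counted at 8.34 to 19.4 and at 2.43 to 10.7. With the filter set over all 18 rats, the log2 fold changes were -0.59 ± 0.27 (SE; edgeR p = 0.0494, exact permutation p = 0.0238) for *Uhrf1* and -0.94 ± 0.35 (SE; edgeR p = 0.0168, exact permutation p = 0.0130) for *Ube2c*, and 7 of 33 members were then lower, against 2.59% of 11821 genes. Of the 8 rats above 10 reads, 5 for *Uhrf1* and 4 for *Ube2c* were bPYX+NT3 rats, which are no part of this comparison.

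The calls leaned on few rats. Without naïve rat 44, 24 of 30 members were negative with a median of -0.11. *Top2a* (-0.92) and *Cenpf* (-0.82) were lower and *Ccne1* (0.24) was higher in edgeR's quasi-likelihood test across all genes. Of all genes, 2.36% were lower and 0.648% higher in that fit. Without rats 42 and 44, the negative count was 22 of 30, the median was -0.08 and the calls were again *Top2a*, *Cenpf* and *Ccne1*. There, 2.19% of all genes were lower and 0.994% higher. Without GFP rat 57, *Top2a* and *Cenpf* were the only 2 calls among 30 members, against 3.42% of all genes lower and 1.74% higher. Without naïve rat 49 there were 9 calls among 31 members, all lower, against 2.44% of all genes lower. With the groups taken from the titles of the separate count files, 27 of 32 members were higher in the group called bPYX+GFP, the median was 0.09 and *Top2a* was at 0.69.

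**Figure D2:**
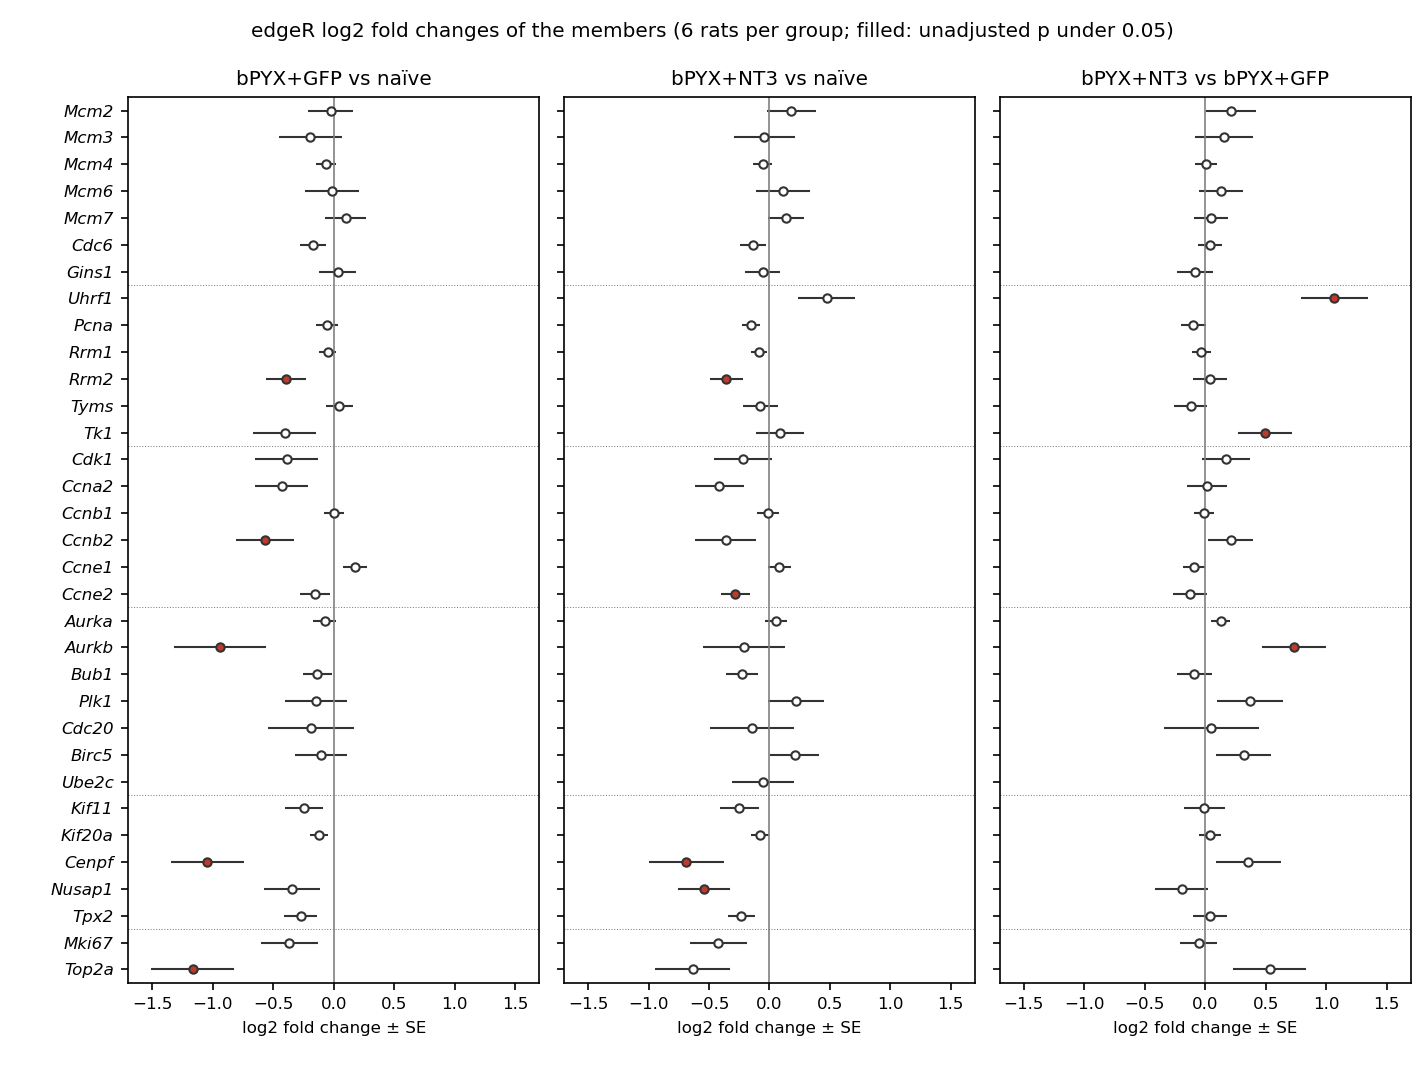
Log2 fold changes (x axis) with their SE for the members tested in each of the 3 comparisons, ordered by role from licensing (top) to chromatin (bottom). Filled points passed an unadjusted p of 0.05 in edgeR, and all of them lie below 0 against naïve rats and above 0 between the operated groups.

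The second comparison sets bPYX+NT3 against the same naïve rats, so its values are not independent of the first. At 4 of 33 tested members the level was lower (*Rrm2*, *Ccne2*, *Cenpf* and *Nusap1*) and at 0 it was higher, against 2.92% lower and 3.09% higher of 11693 genes tested by edgeR's quasi-likelihood test. Log2 fold changes were negative for 24 of 33 members with a median of -0.09, against 49.9% of all genes. After Benjamini-Hochberg adjustment in edgeR's quasi-likelihood test, 0 members and 0 genes (0%) passed, with an adjusted p of 0.607 at the lowest. The likelihood ratio test and DESeq2 also gave 0, and at the unadjusted threshold each added *Top2a*, for 5 members. Group ranges overlapped for all 33 members (0.265% of all genes did not overlap).

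*Rrm2* was at 160 to 213 normalized counts in bPYX+NT3 rats (median 173), all below the naïve median of 213. Its log2 fold change was -0.36 ± 0.14 (SE; edgeR p = 0.0196, exact permutation p = 0.0260) and it passed in each of 12 fits that left out 1 rat, with -0.22 as the value nearest 0, without rat 44. *Nusap1*, which bundles spindle microtubules, was at 29.9 to 71.3 in naïve rats (median 57.9), at 28.0 to 66.0 in bPYX+GFP rats (median 39.6) and at 27.1 to 48.1 in bPYX+NT3 rats (median 36.8). Naïve rat 49 and GFP rat 52 lay apart from their groups in opposite directions. With NT3 the log2 fold change was -0.54 ± 0.22 (SE; edgeR p = 0.0250, exact permutation p = 0.0563).

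*Ccne2*, the second cyclin E, was at 505 to 696 in naïve rats (median 579) and at 345 to 572 in bPYX+NT3 rats (median 500), with -0.28 ± 0.12 (SE; edgeR p = 0.0383, exact permutation p = 0.0519). The low end of the operated groups was NT3 rat 11 (345) and GFP rat 57 (350), both below the 16 other rats. *Ccne2* passed in 6 of 12 fits that left out 1 rat, and not without rat 2, 11, 40, 44, 45 or 49. *Cenpf* had a log2 fold change of -0.69 ± 0.31 with NT3 (SE; edgeR p = 0.0437, exact permutation p = 0.102) and passed in 4 of 12 fits that left out 1 rat, and it did not pass with library size alone as the scaling or with the share of reads outside features as a covariate. *Top2a* was at -0.64 ± 0.31 (SE; edgeR p = 0.0575, exact permutation p = 0.126). *Mki67* was at -0.42 ± 0.24, and its value was 0.00 without rats 42 and 44. *Pcna*, at 694 to 903 in bPYX+NT3 rats, had -0.15 ± 0.08 (edgeR p = 0.0598, exact permutation p = 0.0584). *Tpx2* had -0.23 ± 0.11 (edgeR p = 0.0585, exact permutation p = 0.0498).

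Without naïve rat 44, *Rrm2* was the 1 member that passed, and the same held without NT3 rat 11 and without NT3 rat 40. With 33 members tested in each of these fits, 3.42%, 3.14% and 5.64% of all genes passed. Without rats 42 and 44 together, 0 of 32 members passed edgeR's quasi-likelihood test at an unadjusted p of 0.05, 17 were negative and the median was -0.02. Of all genes, 4.05% passed in that fit. Without NT3 rat 17, 8 members passed, 7 of them lower and *Uhrf1* higher, against 3.51% lower and 3.83% higher of 11638 genes in that fit. With the groups of the titles, 1 member passed, against 2.85% of all genes, and 21 of 32 were positive.

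The third comparison, of the operated groups with each other, addresses NT3 against the control vector. At 3 of 32 tested members the level was higher in bPYX+NT3 than in bPYX+GFP rats (*Uhrf1*, *Aurkb* and *Tk1*), and at 0 it was lower. Over all 11623 genes, 1.08% were higher and 0.654% lower in edgeR's quasi-likelihood test. Log2 fold changes were positive for 21 of 32 members, with a median of 0.04, against a median of 0.00 for all genes. With library size alone as the scaling, the split over all genes moved from 125 higher and 76 lower to 167 higher and 41 lower, and the 3 members passed likewise. In edgeR's quasi-likelihood test with Benjamini-Hochberg adjustment 0 genes passed (0%), with an adjusted p of 0.851 at the lowest, and the likelihood ratio test and DESeq2 also gave 0.

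*Uhrf1* was the 1 member whose groups did not overlap, against 0.0602% of all genes. All 6 bPYX+NT3 rats, at 9.84 to 19.6 normalized counts (median 12.6), were above all 6 bPYX+GFP rats, at 3.65 to 9.82 (median 5.83), though rats 39 and 57 were apart by less than 1 normalized count, and in unscaled reads rat 39 had 10 and rat 57 had 11. Naïve rats, at 7.70 to 13.2 (median 9.00), overlapped both operated groups. On the log2 scale the rise was 1.07 ± 0.28 (SE; edgeR p = 0.00177), and the exact permutation p of 0.00216 is the smallest that 6 rats against 6 can give. Its reads ran from 3 to 11 in bPYX+GFP and from 10 to 25 in bPYX+NT3 rats, so it passed the filter on low counts mainly through the group in which it was high, with 5 bPYX+NT3 rats and 1 bPYX+GFP rat above 10 reads. It was tested, and passed, in 6 of 12 fits that left out 1 rat. The value was also 1.07 with the filter over 18 rats.

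*Aurkb* was at 10.8 to 22.6 in bPYX+NT3 rats (median 18.0), all above the GFP median of 10.3. Its log2 fold change was 0.74 ± 0.26 (SE; edgeR p = 0.0152, exact permutation p = 0.0195), and it passed in each of 12 fits that left out 1 rat but not in 1 fit over the 3 groups. It passed the filter of 10 reads in 6 bPYX+NT3 and 2 bPYX+GFP rats, so mainly through the group in which it was high. *Tk1*, the thymidine kinase of the salvage pathway, was at 29.1 to 43.1 in bPYX+NT3 rats (median 34.3), at 14.0 to 35.9 in bPYX+GFP rats (median 25.3) and at 24.4 to 54.4 in naïve rats (median 30.2). GFP rats 52 and 15 were low. *Tk1* differed by 0.49 ± 0.22 on the log2 scale (SE; edgeR p = 0.0453, exact permutation p = 0.0325), and it passed in 4 of 12 fits that left out 1 rat. It did not pass in DESeq2 or with the share of reads outside features as a covariate.

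None of the other tested members passed the test. *Aurka*, another mitotic kinase, was at 156 to 192 in bPYX+GFP and at 179 to 198 normalized counts in bPYX+NT3 rats, all 6 of which were above the GFP median, with a log2 fold change of 0.13 ± 0.08 (SE; edgeR p = 0.119, exact permutation p = 0.0216). *Top2a* had a log2 fold change of 0.53 ± 0.30 (exact permutation p = 0.0974), *Cenpf* of 0.36 ± 0.27, *Ccnb2* of 0.21 ± 0.19, *Rrm2* of 0.04 ± 0.14 and *Mki67* of -0.05 ± 0.15. *Mcm2* was at 0.21 ± 0.21, *Pcna* at -0.10 ± 0.10, *Cdk1* at 0.17 ± 0.20 and *Ccnb1* at -0.01 ± 0.08. *Ube2c*, again under the filter, was at 2.43 to 10.7 in bPYX+GFP and at 8.12 to 17.7 in bPYX+NT3 rats. With the filter over 18 rats its log2 fold change was 0.89 ± 0.34 (edgeR p = 0.0194, exact permutation p = 0.0130). It passed that filter through 4 bPYX+NT3 rats, where it was high, 1 bPYX+GFP rat and 3 naïve rats, which are no part of this comparison. Without rats 11 and 57, *Aurkb* and *Tk1* passed and *Uhrf1* fell under the filter. These were 2 of 29 members, against 7.48% higher and 5.26% lower of 11477 genes in that fit. With the groups of the titles 0 members passed, against 2.26% of all genes, and *Aurkb* was at -0.59.

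**Figure D3:**
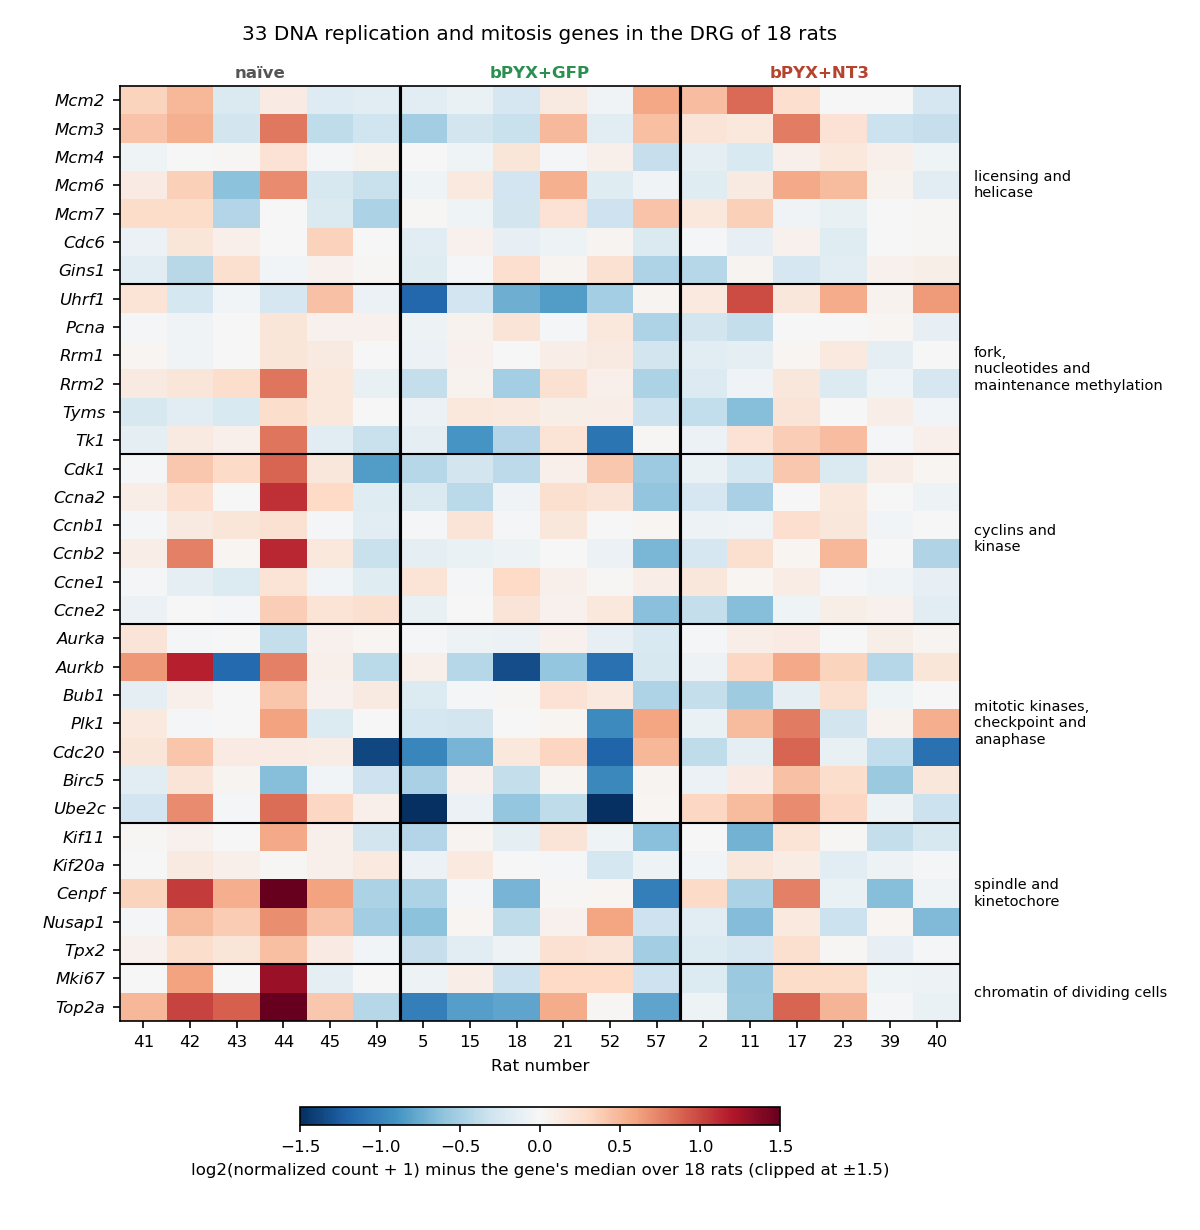
Level of the 33 members that passed 10 reads in 6 rats or more (rows, by role) in each of 18 rats (columns, by group), as log2 of the normalized count plus 1 minus the median of that gene over the rats (red is high, blue is low). The column of naïve rat 44 holds the highest value of 19 of the 33 members.

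Single rats of 1 group differed widely. Naïve rat 44 was the highest of 18 rats for 19 of 33 members, while NT3 rat 17 was highest for 4, and GFP rat 57 was the lowest for 9. The highest rat was a naïve rat for 22 members, a bPYX+GFP rat for 4 and a bPYX+NT3 rat for 7. The lowest rat was a bPYX+GFP rat for 19 members and a rat of each other group for 7. Taking the deviation of each member's log2 CPM from its mean over 18 rats, the median over the 33 members was 0.45 in rat 44, 0.20 in rat 17 and 0.19 in rat 42, and -0.26 in rat 57. Over the groups, this median ran from -0.17 to 0.45 in naïve, from -0.26 to 0.10 in bPYX+GFP and from -0.12 to 0.20 in bPYX+NT3 rats, so the groups overlapped.

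The coefficient of variation among naïve rats ran from 4.09% for *Kif20a*, a kinesin of cytokinesis, to 53.8% for *Aurkb*, which had few reads. It was 5.81% for *Pcna*, 6.35% for *Rrm1* and 7.02% for *Mcm4*. It was 47.4% for *Top2a*, 45.8% for *Mki67*, 45.6% for *Cenpf* and 40.7% for *Ccnb2*. Without rat 44 it fell to 22.6% for *Mki67* but stayed at 34.5% for *Top2a* and 35.4% for *Cenpf*.

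Markers of granulocytes and of blood-forming cells were high in some of the rats in which the members were high. Rats 44, 42 and 17, in which the members were highest, had the 3 highest sums over the 7 granulocyte and marrow markers with a row (4101, 2254 and 2137 normalized counts, against a range of 393 to 1861 in the other rats). Naïve rats ran from 393 to 4101, bPYX+GFP rats from 568 to 1861 and bPYX+NT3 rats from 513 to 2137. The levels of *S100a8* and *S100a9*, the calprotectin subunits of granulocytes, were 1531 and 2069 in rat 44, and those of *Camp*, the cathelicidin precursor, and *Ctsg*, cathepsin G, were 178 and 49.3. *Prtn3* was under 1 normalized count on average. The other rats did not follow one order, since GFP rats 15 and 52 had sums of 1679 and 1470 with median deviations of the members of -0.05 and -0.04, and naïve rat 45 had a sum of 472 with 0.12. The sum of the 2 B cell markers with a row was 104 in rat 44 and 103 in rat 21, against 4.06 to 51.0 elsewhere. Rat 44 also had the highest sum of the 4 erythroid markers with a row (1713), followed by rat 11 (1662), in which the members had a median deviation of -0.04, while rat 17 was at 703. The T cell and macrophage sums were highest in rat 17 (431 and 2846). None of the granulocyte and marrow markers that could be tested passed edgeR's quasi-likelihood test in any comparison at an unadjusted p of 0.05, with 4, 5 and 4 of them tested and all of these lower in the group named first. Their part in the result was not tested.

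Other cell types of the ganglion were checked in the same way, as dividing cells could belong to any of them. Of 5 fibroblast markers, 3 passed the test as lower and 0 as higher against naïve rats, both with GFP and with NT3, with median log2 fold changes of -0.23 and -0.28, and their sum ran from 28465 to 38403 normalized counts in naïve, from 26258 to 34008 in bPYX+GFP and from 20907 to 36674 in bPYX+NT3 rats. Of 5 Schwann cell markers, 1 was lower than in naïve rats in each operated group, with medians of -0.30 and -0.03. All 8 macrophage markers were tested and 0 passed edgeR's quasi-likelihood test at an unadjusted p of 0.05 in any comparison. Of 4 satellite glia markers tested, 1 was lower with NT3 than in naïve rats and 0 passed with GFP against naïve rats. Between the operated groups, 1 of these 4 was higher with NT3 than with GFP. The row of *Apoe*, which should be abundant in these glia, was under 1 normalized count on average. Of 5 endothelium markers, 4 had positive values and 0 passed with GFP against naïve rats, and 5 had positive values and 1 was higher with NT3, with medians of 0.16 and 0.14. All 3 mast cell markers that could be tested, of 4, had negative values against naïve rats in both operated groups, with 1 lower with GFP and 2 with NT3 and medians of -0.35 and -0.73, and 1 was lower with NT3 than with GFP. Of 4 adipocyte markers, 2 could be tested, and both were lower with NT3 than with GFP (median log2 fold change -2.08). Against naïve rats, 1 adipocyte marker was lower with NT3 (median -1.63) and 0 passed with GFP (median 0.46). The part of these cell types in the results was not tested.

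**Figure D4:**
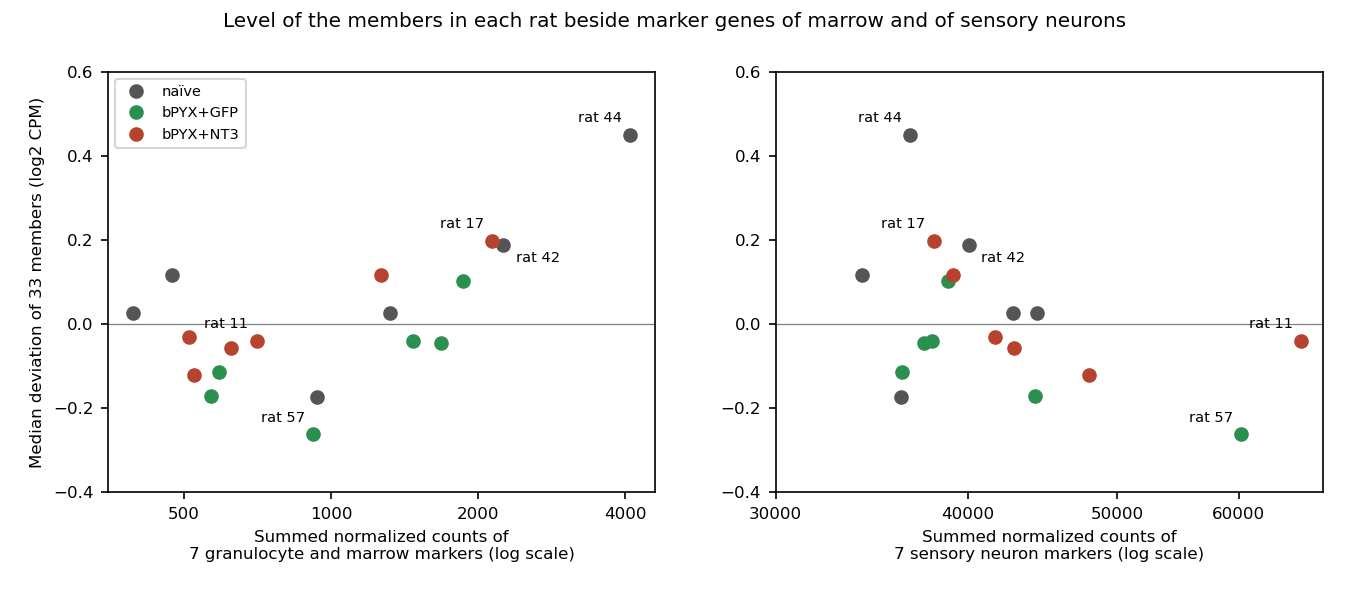
Median deviation of the 33 members in each rat (y axes, log2 CPM against the mean of 18 rats) beside the summed normalized counts (x axes, log scales) of 7 granulocyte and marrow markers (left) and of 7 sensory neuron markers (right), with 1 point per rat coloured by group. Rats 44, 42 and 17 lie at the upper right of the left panel, and rats 57 and 11 at the far right of the right panel.

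In rats 57 and 11, which had the most neuron marker reads, 6 of 33 members were below all 16 other rats (*Ccna2*, *Bub1*, *Mcm4*, *Pcna*, *Ccne2* and *Kif11*) and 2 were above all of them (*Mcm2* and *Mcm7*). *Pcna* was at 641 and 694 there, against 734 to 1014 elsewhere, while *Mcm2* was at 71.4 and 86.2, against 39.7 to 67.7. These rats belong to different operated groups. They were singled out in these same data, and the share of all genes set apart in this way was not determined. The counts of 6 and 2 can therefore not be read as particular to the members. Between the operated groups, 201 genes in all passed edgeR's quasi-likelihood test unadjusted. There were 2291 without rat 57, 95 without rat 11 and 1462 without rats 11 and 57 together. Rats 57 and 11 had the highest sums of neuron markers and the lowest levels of *Ccne2*, and the part of this in the difference of *Ccne2* was not tested. Without rat 11 the log2 fold change of *Ccne2* with NT3 against naïve rats was -0.20 and did not pass edgeR's quasi-likelihood test. Nor did it with the share of reads outside features as a covariate (-0.15). *Ccne2* passed in 6 of 12 fits that left out 1 rat, and the -0.20 without rat 11 was the value nearest 0 among them.

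A wider list of 110 other cell cycle genes, of which 92 had a row, was compared in the same fits. Between bPYX+GFP and naïve rats, 2 of 87 were lower and 1 was higher, with a median log2 fold change of -0.02. The lower genes were *Pbk* (-0.91 ± 0.33), a mitotic kinase, and *Prc1* (-0.55 ± 0.21), which bundles the central spindle, and the higher gene was *Pole* (0.24 ± 0.09), the catalytic subunit of DNA polymerase epsilon. Between bPYX+NT3 and naïve rats, 6 of 89 were lower and 4 higher, with a median of -0.07. The 5 with the smallest p were *Incenp* (0.20 ± 0.06), of the chromosomal passenger complex, *Pola1* (-0.36 ± 0.12), of the primase complex, *Pole* (0.27 ± 0.10), the flap endonuclease gene *Fen1* (0.32 ± 0.13) and *Ect2* (-0.51 ± 0.21), which acts in cytokinesis. Between the operated groups, 0 of 87 passed edgeR's quasi-likelihood test at an unadjusted p of 0.05, with a median of -0.04. The shares passing are to be read against those of all genes given for each comparison above.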

How the data were processed

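Per the study's methods, the authors mapped paired 50 bp reads with TopHat2 (build Rnor_6.0), removed duplicates with Picard and ran HTSeq, and they deposited its raw counts for each RefSeq identifier. Base calling used bcl2fastq 1.8.4 per the submitters' processing notes. Reads that fell on no counted gene (53.9% to 59.1% of a library) stayed out of library sizes. A strand setting of the counting is not given in the sources used here. Of 15075 identifiers, 14187 matched a RefSeq symbol. Samples were matched to columns by the heading of the table.

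Each pair of groups was fitted in R 4.3.3 with edgeR 4.0.16 (TMM, glmQLFit and glmQLFTest) over genes above 10 reads in 6 or more of the 12 rats. P-values were two-sided and adjusted by the Benjamini-Hochberg method over all genes tested. Exact permutation tests used log2 CPM with a prior count of 2. Members and lists were chosen with earlier results of these data known. Members are named with values where p was under 0.05 in a comparison or where they are common proliferation markers, and of the wider list up to 5 with the smallest p per comparison. Other members, among them *Aurka*, *Ccne1*, *Tpx2* and *Ube2c*, are given values outside this rule. Alternatives included DESeq2 1.42.0, other scalings and filters, and leaving out rats. Fits were checked on simulated data. Python 3.11.15, pandas 2.3.3, scipy 1.17.1 and matplotlib 3.10.9 were used.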

Additional observations from a re-analysis of the deposited data

Results flagged for a closer look

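Among the named members in 3 groups, 42 sets of 6 rats were screened for a rat whose gap to its nearest neighbour, as a share of the range of the group, was above Dixon's 95% critical value, which chance gives in about 1 of 20 sets. It was found for 3. *Ccnb2* was at 20.5 normalized counts in bPYX+GFP rat 57, against 30.4 in the next rat. *Rrm2* was at 332 in naïve rat 44, against 228 in the next rat. *Tk1* was at 54.4 in naïve rat 44, against 33.9 in the next rat.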

How the results depend on the processing

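The 12 calls on single members kept their direction under every alternative but 1, with 227 of 285 values past the threshold, 47 not past it and 11 reversed. The 11 came from the groups of the titles of the separate count files, where *Top2a* was at 0.69, *Ccnb2* at 0.24, *Aurkb* at 0.38, *Rrm2* at 0.14 and *Cenpf* at 0.21 between bPYX+GFP and naïve rats, *Rrm2* at 0.30, *Ccne2* at 0.22, *Cenpf* at 0.42 and *Nusap1* at 0.52 with NT3 against naïve rats, and *Aurkb* at -0.59 and *Tk1* at -0.14 between the operated groups. In that grouping the median of the members was 0.089 between bPYX+GFP and naïve rats, 1 member was called with NT3 against naïve rats and 0 between the operated groups, and 174 and 330 genes in all were called against naïve rats with GFP and with NT3. With the share of reads outside features as a covariate, 848 genes in all were called with GFP against naïve rats. With NT3 against naïve rats, that covariate gave 2 of 33 members, against 4.11% of all genes. Without a filter, 315 genes were called between the operated groups. The replicate block called 8 of 31 members with GFP against naïve rats, where 2.72% of all genes were called. With NT3 against naïve rats it called 9 of 33 members and 2962 genes in all, which are 25.3% of all genes. Between the operated groups it called 130 genes in all. The deviations of rats with the same number correlated between -0.402 and 0.534, over 0.1 in 10 of 18 pairs. Between naïve and bPYX+NT3 rats the correlations were 0.33, 0.53, -0.30, 0.49, 0.29 and 0.40 for numbers 1 to 6. Of 36 best matches, 9 were with the same number. The labels do not say whether the numbers mark a batch or a pairing, and this was not tested. Leaving out 1 rat at a time gave 2 to 9, 1 to 8 and 1 to 4 members in the 3 comparisons, and 272 to 595, 365 to 1387 and 95 to 2291 genes in all, with 595 and 2291 reached without rat 57 and 1387 without rat 23. The next 3 alternatives were chosen after seeing the data. Without rats 42 and 44, 3 and 0 members were called against naïve rats, and without rats 11 and 57, 1462 genes were called between the operated groups. Leaving *Top2a* and *Uhrf1* out of the set, because of how they were named, gave 4, 4 and 2 members. The exact tests fell on the same side of 0.05 with a prior count of 0.5. The causes were not tested. With 2 to 45 reads per rat on *Uhrf1*, *Ube2c* and *Aurkb*, depth limits their values.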
